A study of Mus musculus with 8 samples.

Results

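10 receptor genes of myeloid cells were followed through mouse heart, liver and kidney allografts and through the blood of the graft recipients. They are the 4 receptors for IgG of the mouse (Fcgr1, Fcgr2b, Fcgr3 and Fcgr4), their shared signalling chain (Fcer1g) and 5 C-type lectins (Clec4d, Clec4e, Clec4n, Clec7a and Clec12a). They were chosen by name, are 10 of the 24405 genes in the count tables, and were present in all 8 tables. Single cells were profiled by Microwell-seq, in which cells settle on an array of wells with barcoded beads and each captured mRNA carries a unique molecular identifier (UMI). Organs of male BALB/c mice aged 8 weeks were grafted into C57BL/6 recipients without immunosuppression, and cells were taken on day 7, while the labels give BALB/c for every library, blood included. The libraries were peripheral blood mononuclear cells (PBMC) of heart, liver and kidney recipients, graft-infiltrating lymphocytes (TIL) of the same organs and parenchymal cells (PC) of liver and kidney grafts. Samples came from 2 recipients per organ, each condition had 1 library, and whether a library pools the 2 animals is not given in the sources used here. In a graft the host's and the donor's cells cannot be told apart by these counts.

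Receptors for the Fc part of IgG let myeloid cells bind antibody-coated targets and immune complexes. Fcgr1, Fcgr3 and Fcgr4 are activating and signal through the FcRγ chain encoded by Fcer1g, whose immunoreceptor tyrosine-based activation motif (ITAM) recruits the kinase Syk, whereas Fcgr2b carries an inhibitory motif. The C-type lectins Clec4e (Mincle), Clec4d (MCL) and Clec4n (Dectin-2) recognise glycolipids or mannans and also couple to the FcRγ chain, Clec7a (Dectin-1) binds β-glucan through a motif of its own that reaches Syk and Card9, and Clec12a is an inhibitory receptor. Antibody and damage signals reach graft macrophages and neutrophils through such receptors.

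9 of the 10 genes lie in 3 stretches of the genome. On GRCm38 (GENCODE M21), Fcgr2b (chr1:170958617-170976547), Fcgr4 (chr1:171018920-171029761), Fcgr3 (chr1:171051174-171064935) and Fcer1g (chr1:171229572-171234365) share 276 kb of chromosome 1. Clec4n (chr6:123229843-123247021), Clec4d (chr6:123262111-123275265) and Clec4e (chr6:123281789-123289870) share 60.0 kb of chromosome 6, and Clec12a (chr6:129342691-129365303) and Clec7a (chr6:129461591-129472779) share 130.1 kb of the same chromosome. Fcgr1 lies alone at chr3:96282909-96293969. The annotation lists Clec7a as a polymorphic pseudogene and the other 9 as protein coding. Fcgr2b, Fcgr3 and Fcgr4 are similar in sequence, and the authors discarded reads that aligned to several places, so their counts can fall short by an amount that was not measured.

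Promoters are shown for 2 pairs of nearby genes whose levels moved together across cell classes, Fcgr3 with Fcgr4 and Clec4d with Clec4e. Each line is the 250 bases before the gene's start on the gene's own strand, 5′ to 3′, from RefSeq on GRCm38.p6. The windows are chr1:171059404-171059653 (minus strand) for Fcgr3, chr1:171018676-171018925 (plus strand) for Fcgr4, chr6:123261857-123262106 (plus strand) for Clec4d and chr6:123289872-123290121 (minus strand) for Clec4e, and the RefSeq start of Fcgr3 lies inside the span that GENCODE gives the gene. The capitals mark GAGGAA on either strand (TTCCTC where it lies on the opposite one), the core bound by the myeloid factor PU.1.
Fcgr3: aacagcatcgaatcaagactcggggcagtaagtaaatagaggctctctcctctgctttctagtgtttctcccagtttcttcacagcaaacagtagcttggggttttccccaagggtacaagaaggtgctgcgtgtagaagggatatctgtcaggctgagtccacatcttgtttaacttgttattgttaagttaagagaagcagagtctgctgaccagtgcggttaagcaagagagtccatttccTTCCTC
Fcgr4: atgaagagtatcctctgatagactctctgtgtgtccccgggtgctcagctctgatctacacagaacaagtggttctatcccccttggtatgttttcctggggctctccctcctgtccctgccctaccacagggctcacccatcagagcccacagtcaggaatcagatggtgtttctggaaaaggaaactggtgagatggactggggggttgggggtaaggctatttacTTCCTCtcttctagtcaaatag
Clec4d: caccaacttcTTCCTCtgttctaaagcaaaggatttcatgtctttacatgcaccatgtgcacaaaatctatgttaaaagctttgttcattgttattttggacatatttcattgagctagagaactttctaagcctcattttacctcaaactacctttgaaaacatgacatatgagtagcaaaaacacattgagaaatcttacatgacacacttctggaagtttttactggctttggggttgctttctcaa
Clec4e: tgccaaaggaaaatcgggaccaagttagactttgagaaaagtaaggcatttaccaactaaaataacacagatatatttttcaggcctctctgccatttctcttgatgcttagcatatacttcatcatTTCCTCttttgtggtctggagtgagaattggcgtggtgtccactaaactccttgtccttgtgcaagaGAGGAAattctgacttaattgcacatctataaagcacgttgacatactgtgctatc
Fcgr3, Fcgr4 and Clec4d held 1 match each, 6, 22 and 240 bases before the start by the first base of the match, and Clec4e held 2 matches, 123 and 56 bases before it. RefSeq promoters were matched for 9 of the 10 genes, Clec4n being named only, and 7 of the 9 held the 6 bases on either strand, against 23.3% of 32851 promoter windows of the same length. A match describes these letters only.

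The libraries held 10000 barcodes each and 3418722 to 19171264 UMIs, and 47542 barcodes with at least 500 UMIs were kept as cells. Classes were set by the rule and not by clustering. Csf1r+ cells had at least 1 UMI of the macrophage growth factor receptor Csf1r and were split at 5 UMIs of C1qa, C1qb and C1qc together, Csf3r+ cells had at least 1 UMI of the granulocyte receptor Csf3r, and B, NK and T cells had at least 2 UMIs over Cd79a, Cd79b and Ms4a1, over 6 NK receptor genes and over Cd3d, Cd3e and Cd3g. 25392 cells met exactly 1 rule. Levels are the summed UMIs of a gene in a class as counts per 1000000 UMIs of that class (CPM), with exact 95% Poisson intervals in parentheses that cover counting error only. A value of 0 allows up to 3 UMIs in that sum.

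The labels of cells and libraries were checked first. In the PBMC, neutrophil RNA was in every class, the 7 neutrophil markers summing to 212916 CPM in Csf3r+ cells, 179761 CPM in Csf1r+ C1q-low cells and 107987 CPM in T cells of heart PBMC. S100a8 and S100a9, the leading neutrophil transcripts, made up at least 5% of the UMIs in 94.2% of Csf1r+ C1q-low cells of heart PBMC, 51.4% of those of liver PBMC and 17.2% of those of kidney PBMC. In tissue the reverse was seen, with that share reached by 13.5%, 42.5% and 10.6% of the Csf3r+ cells of the library labelled heart TIL, liver PC and the library labelled liver TIL, so these cells are called by their rule and not neutrophils. Organ genes ran against 2 labels, since the library labelled heart TIL held 1031 UMIs of Alb, the hepatocyte albumin, and the library labelled liver TIL held 0 of Alb and 123 of the cardiac Myl7, and both are named by their labels throughout. Pairs of libraries shared 123 to 617 barcodes. T cells, which should lack most of these receptors, carried a median over the genes of 45.9%, 45.4% and 10.3% of the C1q-low level in the PBMC of heart, of liver and of kidney recipients, and 49.1%, 56.1% and 26.7% in the library labelled heart TIL, the library labelled liver TIL and liver PC. In kidney TIL the median was 20.9%. In kidney PC it was 103%, so the 34 C1q-low cells there did not stand above T cells by this median, and their values enter the C1q-low ranges and the comparison of tissue with blood. Each level stands against this background.

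All 4 receptors for IgG had their highest median in Csf1r+ C1q-high cells, which numbered 20 or more in 3 tissue libraries, while the medians of the other classes include blood. Fcgr1, the high-affinity receptor, ran from 268 to 537 CPM (median 355) there, from 41.4 to 315 CPM (median 179) in the C1q-low cells of 8 libraries, and from 27.8 to 315 CPM (median 164) in Csf3r+ cells of 6 libraries. The ranges of C1q-low and Csf3r+ cells overlapped almost wholly. Fcgr4, which binds IgG2 subclasses, ran from 617 to 1075 CPM (median 1049), 136 to 854 CPM (median 558) and 479.9 to 766 CPM (median 647) in the same 3 classes. Fcgr3, a low-affinity receptor, ran from 721 to 1283 CPM (median 838) in C1q-high cells and 548 to 985 CPM (median 815) in Csf3r+ cells, overlapping ranges, with 909, 889.6 and 741 CPM in Csf3r+ cells of heart, liver and kidney PBMC. NK cells carried 106 to 335 CPM (median 278) of Fcgr3 and T cells 56 to 447 CPM (median 189), ranges that overlapped. The inhibitory Fcgr2b ran from 419 to 663 CPM (median 503) in C1q-high cells and 45.4 to 448 CPM (median 276) in C1q-low cells, and B cells, in which it is the known IgG receptor, held 127 to 170.5 CPM (median 139.9).

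The FcRγ chain gene Fcer1g was present in all 6 classes. It ran from 4870.4 to 5622 CPM (median 5546) in C1q-high cells, 1090.1 to 5329 CPM (median 4464) in C1q-low cells, 3113 to 4861 CPM (median 4451) in Csf3r+ cells and 2519 to 4697 CPM (median 3275) in NK cells. B and T cells held 847 to 3545 CPM (median 2262) and 446 to 2625 CPM (median 1689). The 2 lowest values of the C1q-low cells were those of kidney PC and kidney TIL, 1090.1 and 1829.8 CPM, from sums of 34 and 50 cells.

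By median, the lectins split into genes led by Csf3r+ cells and genes led by the C1q-high part of the Csf1r+ cells. Clec4d ran from 222 to 1140.2 CPM (median 530.2) in Csf3r+ cells and 0 to 821 CPM (median 230.2) in C1q-low cells, and Clec4e from 428 to 1326 CPM (median 861) and 0 to 1250.0 CPM (median 397). The class second by median was B cells for Clec4d, at 369 CPM, and C1q-high cells for Clec4e, at 505 CPM. Clec7a ran from 169 to 681 CPM (median 342) in Csf3r+ cells, 28.1 to 437 CPM (median 211) in C1q-low cells and 103 to 296 CPM (median 202) in C1q-high cells, and in the library labelled heart TIL the Csf3r+ cells, at 169 CPM, were the lowest of the 3 classes. Clec4n and Clec12a were led by the C1q-high cells by median, at 403 to 561 CPM (median 415) and 434 to 524 CPM (median 451), against 88.9 to 512 CPM (median 207) and 88.9 to 343 CPM (median 188) in Csf3r+ cells. The C1q-low medians of Clec4n and Clec12a were 95.8 and 213 CPM, that of Clec4n below its Csf3r+ median. These medians cover 3 tissue libraries for C1q-high cells and blood as well for C1q-low and Csf3r+ cells. In the library labelled heart TIL, liver PC and the library labelled liver TIL alone, Clec4n was 512, 254 and 408 CPM in Csf3r+ cells and 561, 415 and 403 CPM in C1q-high cells, with overlapping ranges. Between classes next to each other in order of their median, the ranges overlapped for all 10 genes, with the exception of Clec12a in C1q-high and C1q-low cells. The C1q-low cells of kidney PBMC, 29 in number, held 0 UMIs of Clec4n, which allows up to 118 CPM.

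**Figure D1:**
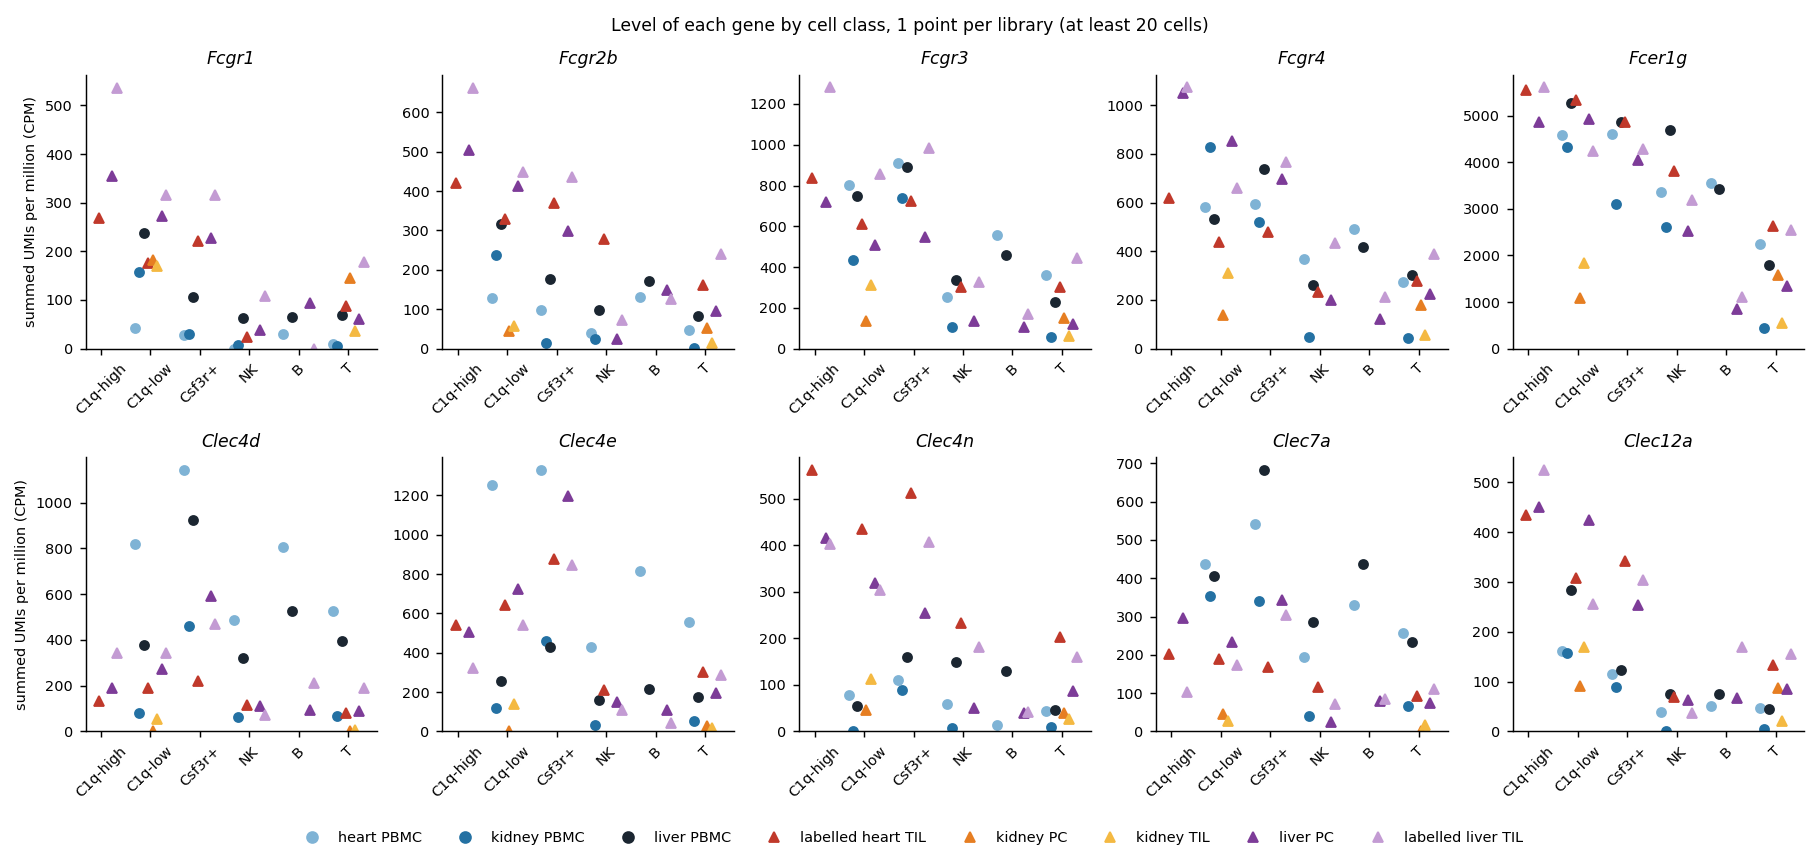
Summed level in CPM (y axis, linear from 0, own scale per gene) of the 10 genes in the 6 cell classes (x axis), 1 point per library with at least 20 cells, circles for blood and triangles for tissue. Fcgr1 in C1q-high cells spans 268 to 537 CPM, and Fcer1g in NK cells spans 2519 to 4697 CPM.

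The comparison of C1q-high with C1q-low Csf1r+ cells within a library asked whether the complement-producing macrophages of the grafts differ in these receptors. It used the library labelled heart TIL (443 C1q-high and 474 C1q-low cells), liver PC (699 and 507) and the library labelled liver TIL (568 and 507). Kidney PC and kidney TIL held 17 C1q-high cells each and entered no test. 6 of the 10 genes were higher in C1q-high cells and 1 was lower, 7 in all, while 3.89% of the 5443 genes tested were called higher, 4.91% lower and 8.8% in either direction (edgeR's quasi-likelihood test, library as a block, Benjamini-Hochberg adjusted p under 0.05).

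Fcgr3 was 838, 721 and 1283 CPM in C1q-high cells of the library labelled heart TIL, liver PC and the library labelled liver TIL, and 610.4, 509 and 855 CPM in their C1q-low cells. It was higher in 3 of 3 libraries (log2 0.52 ± 0.09 (SE), adjusted p = 0.000359). Libraries differed enough for the ranges of the classes to overlap, so the change is seen within a library. Fcgr1 was 268, 355 and 537 CPM against 175, 272 and 315 CPM (log2 0.56 ± 0.11 (SE), adjusted p = 0.00134). Fcgr4 was 617, 1049 and 1075 CPM against 440.0, 854 and 660.4 CPM (log2 0.48 ± 0.10 (SE), adjusted p = 0.00184). The 3 activating receptors thus rose together, each in 3 of 3 libraries. The inhibitory Fcgr2b was 419, 503 and 663 CPM against 328, 413 and 448 CPM (log2 0.39 ± 0.10 (SE), adjusted p = 0.011), so it rose as well, in 3 of 3 libraries. Their chain Fcer1g did not pass the test (adjusted p = 0.45), with 5546, 4870.4 and 5622 CPM against 5329, 4922 and 4241 CPM.

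Among the lectins, Clec4e, the receptor for mycobacterial cord factor and for a nuclear protein of dead cells, was the 1 called lower. It was 539.8, 505 and 320.4 CPM in C1q-high cells and 643, 724 and 539.7 CPM in C1q-low cells, lower in 3 of 3 libraries (log2 -0.50 ± 0.10 (SE), adjusted p = 0.00135). Clec4n was higher in C1q-high cells in 3 of 3 libraries, at 561, 415 and 403 CPM against 435, 319 and 303 CPM (log2 0.38 ± 0.10 (SE), adjusted p = 0.0118). Clec4n and Clec4e, of the same stretch of chromosome 6, thus changed in opposite directions. Clec12a was 434, 451 and 524 CPM against 308, 425 and 256 CPM (log2 0.47 ± 0.13 (SE), adjusted p = 0.0236), the one gene whose groups did not overlap, as 4.68% of all genes tested did not with C1q-high cells higher. Clec4d and Clec7a did not pass, with adjusted p = 0.114 and 0.963. Clec4d had log2 -0.33 ± 0.13 (SE), lower in C1q-high cells beyond counting error in 2 of 3 libraries and at a ratio of 1.003 in the other. Clec7a was higher in C1q-high cells of liver PC, 296 against 235 CPM, and lower in those of the library labelled liver TIL, 103 against 172 CPM.

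**Figure D2:**
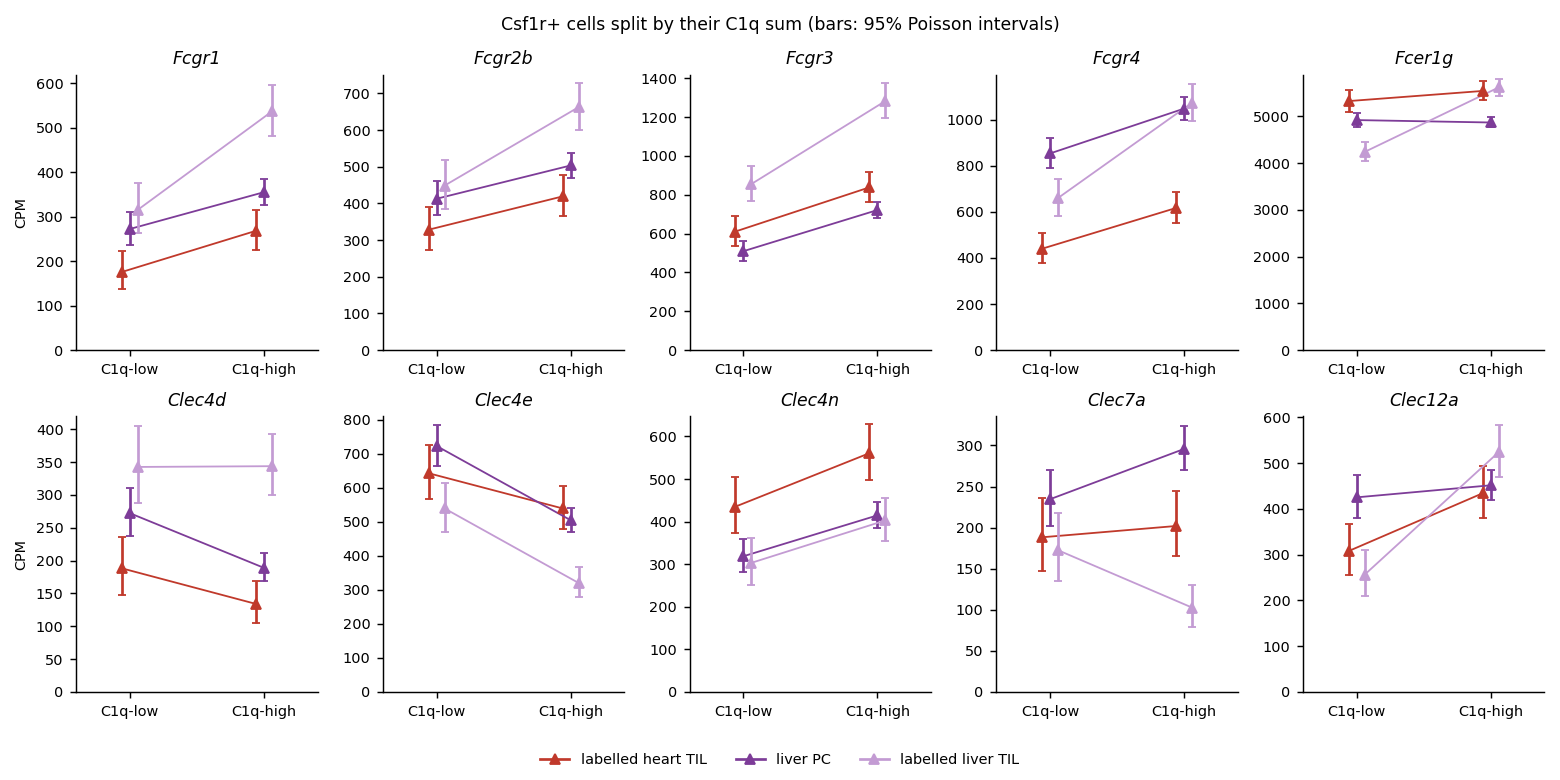
Level in CPM (y axis, from 0) of the 10 genes in C1q-low and C1q-high Csf1r+ cells (x axis) of 3 tissue libraries, each line joining the 2 classes of a library, bars being 95% Poisson intervals. Fcgr1, Fcgr2b, Fcgr3, Fcgr4, Clec4n and Clec12a rise in every line and Clec4e falls in every line.

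Fcgr1, Fcgr3, Fcgr4 and Clec4e passed under 14 of 16 alternative settings each, Clec12a under 10, Clec4n under 9 and Fcgr2b under 8. With at least 2 UMIs of Csf1r, Clec4e alone was called, where 175 of 2263 genes tested were. Every gene called higher in C1q-high cells missed the threshold there, and 4 of the 10 genes had an unadjusted p under 0.05 by edgeR. Among these settings, leaving out cells over 10% mitochondrial UMIs removed no cell of these classes and repeated the main fit. Leaving out the library labelled heart TIL lost Fcgr2b and Clec4n (adjusted p = 0.0665 and 0.116), leaving out liver PC lost Clec4n (0.0546), and leaving out the library labelled liver TIL lost Fcgr2b and Clec12a (0.111 and 0.364) and brought in Clec4d at log2 -0.54 (0.0108). C1q-high cells were deeper, with median UMIs of 1002, 2060 and 942.5 against 729.5, 1325 and 711, and their neutrophil markers summed to 3428, 4019 and 3377 CPM against 8304, 13087 and 6745 CPM. Other cell types' markers moved too. T cell markers summed to 1108, 697 and 897 CPM against 1882, 1021 and 1589 CPM, and NK cell markers to 2392, 1145 and 1072 CPM against 4326, 1989 and 1994 CPM. Plasma cell markers summed to 609.7, 331 and 1799 CPM against 778, 461 and 3790.1 CPM. Erythroid markers summed to 96.3, 0.604 and 26107 CPM against 191, 1.25 and 44525 CPM, the values of liver PC being 1 UMI in each class. The first 3 of these lists were lower in C1q-high cells in 3 of 3 libraries. Kupffer cell markers were higher in C1q-high cells of the library labelled heart TIL and liver PC, at 676 and 1187 against 129.7 and 174 CPM, and 4.67 against 4.93 CPM in the library labelled liver TIL. The part of these in the result was not tested. With the cells rich in S100a8 and S100a9 left out, Clec4e was still lower, at log2 -0.44 (adjusted p = 0.000556). Cells thinned to 500 UMIs were classed anew, with 186, 214 and 241 C1q-high cells in the library labelled heart TIL, liver PC and the library labelled liver TIL. Clec4e then missed the threshold at log2 -0.42 (adjusted p = 0.0591), and Fcer1g passed at 0.32 (0.0039).

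The levels were also followed over 5 bins of the C1q sum, at 0, 1 to 4, 5 to 9, 10 to 19 and 20 or more UMIs per cell. Fcgr3 was 894, 849.6, 1069, 1236 and 1524 CPM in these bins of the library labelled liver TIL and 626, 607, 739.6, 749 and 1062 CPM in the library labelled heart TIL. In liver PC it was 549.5, 495, 525, 771 and 763 CPM. In each library the top bin lay above the bin of 1 to 4 UMIs beyond counting error, and the bins at 0 and at 1 to 4 had overlapping intervals. Clec4e was 795, 699, 605, 609 and 448 CPM in liver PC and 726, 626, 625, 583 and 382 CPM in the library labelled heart TIL, lowest in the top bin of both. In the library labelled liver TIL it was 278, 577, 411, 318 and 237 CPM, so the bin without C1q was low there too. Fcgr4 of the library labelled liver TIL went from 596 to 1361 CPM and Fcgr1 from 318 to 586 CPM between the lowest and the top bin. In liver PC and the library labelled heart TIL Fcgr4 went from 981 to 1120.2 and from 484 to 693 CPM, and Fcgr1 from 255 to 368 and from 213 to 267 CPM. The intervals of the lowest and the top bin overlapped in all of these but Fcgr4 of the library labelled liver TIL. These bins share cells with the comparison above and are a description.

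**Figure D3:**
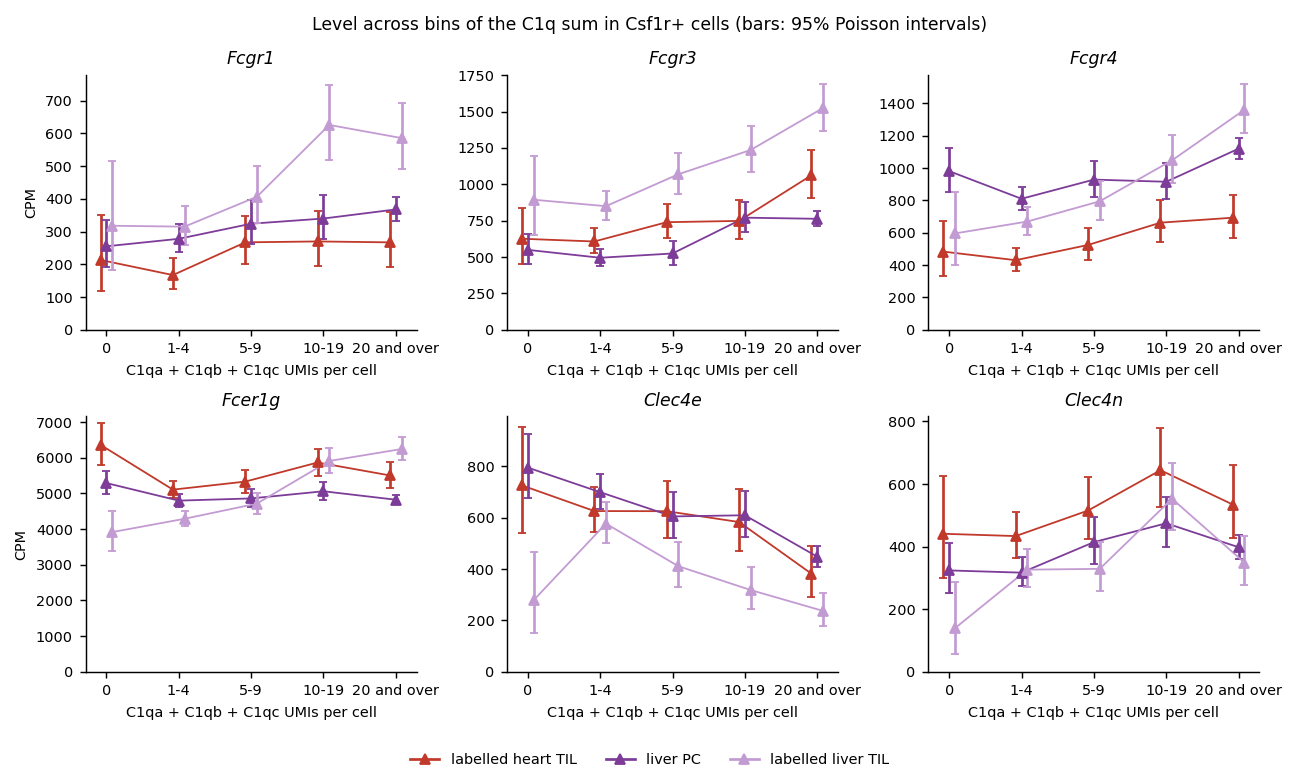
Level in CPM (y axis, from 0) of 6 of the genes over bins of the C1q sum per Csf1r+ cell (x axis) in 3 tissue libraries, bars being 95% Poisson intervals. Fcgr3 in the library labelled liver TIL goes from 894 to 1524 CPM, whereas Clec4e in liver PC goes from 795 to 448 CPM.

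Other genes of the pathway did not all follow the receptors. The list of cytokine genes holds genes that lie downstream of Syk and Card9, among them the enzyme gene Ptgs2. Of 5 of its genes tested, 4 were lower and 0 higher in C1q-high cells, the list's median log2 being -0.69 against a median of -0.0012 over all genes tested. The chemokine Cxcl2 fell by log2 1.01 ± 0.09 (SE), adjusted p = 9.37e-08, Il1b, which encodes interleukin-1β, fell by log2 0.86 ± 0.09 (SE), adjusted p = 1.05e-06, and Ccl3 fell by log2 0.66 ± 0.10 (SE), adjusted p = 4.32e-05. Cxcl2 and Il1b were also higher in Csf3r+ than in C1q-low cells, at log2 1.94 and 1.52. C1q-low cells held more neutrophil marker RNA than C1q-high cells, as given above, and its part in these falls was not tested. Of 13 ITAM and Syk signalling genes tested, 2 were lower and 0 higher, Malt1 (log2 -1.26 ± 0.36 (SE), adjusted p = 0.0276), a partner of Card9, and the kinase gene Prkcd (log2 -0.40 ± 0.12 (SE), adjusted p = 0.0326). None of 5 inhibitory phosphatase and adaptor genes passed the edgeR test. Of 8 other C-type lectins tested, 3 were higher and 0 lower, namely Clec1b (log2 2.35 ± 0.33 (SE), adjusted p = 2.61e-05), a receptor of platelets and of liver macrophages, Clec4a2 (log2 0.76 ± 0.12 (SE), adjusted p = 0.000114), an inhibitory lectin, and Clec4b1 (log2 2.09 ± 0.40 (SE), adjusted p = 0.00101). The IgG transporter gene Fcgrt, the single other Fc receptor tested, was higher (log2 1.17 ± 0.25 (SE), adjusted p = 0.00223).

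Csf3r+ cells were set against Csf1r+ C1q-low cells of the same library, to compare granulocytes with monocytes and macrophages low in C1q, in 6 libraries. 4 of the 10 genes were higher in Csf3r+ cells and 0 lower, where 7.47% of 3989 genes were called higher, 1.91% lower and 9.38% in either direction. Clec4d was 1140.2, 922 and 459.5 CPM in Csf3r+ cells of heart, liver and kidney PBMC and 821, 379 and 78.8 CPM in C1q-low cells. In the library labelled heart TIL, liver PC and the library labelled liver TIL it was 222, 591 and 469 CPM against 188, 272 and 343 CPM. It was higher in 6 of 6 libraries (log2 0.95 ± 0.16 (SE), adjusted p = 0.000857). Clec4e was 1326, 428 and 459.5 CPM against 1250.0, 254 and 118 CPM in the PBMC, and 875, 1196 and 846 CPM against 643, 724 and 539.7 CPM in tissue. It too was higher in 6 of 6 libraries (log2 0.69 ± 0.13 (SE), adjusted p = 0.00182). Clec7a was higher in 4 of 6 (log2 0.62 ± 0.13 (SE), adjusted p = 0.00549), the exceptions being kidney PBMC, with 341 against 355 CPM, and the library labelled heart TIL, with 169 against 188 CPM. Fcgr3 passed narrowly (log2 0.37 ± 0.11 (SE), adjusted p = 0.0374), and leaving out any library but kidney PBMC lost it, at adjusted p = 0.0511 to 0.161. Fcgr1, Fcgr2b, Fcgr4, Fcer1g, Clec4n and Clec12a did not pass, at adjusted p = 0.122 to 0.985. Without TMM scaling, which moved the median gene by log2 -0.15, the share of calls that were higher fell from 79.7% to 52.3% and Clec4d and Clec4e remained called, with all 4 genes still higher.

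Both gates were mixed, so the comparison was repeated with Csf3r+ cells kept at 5% or more of S100a8 and S100a9 and Csf1r+ cells kept below it, a gate chosen after the data were seen. Heart PBMC then left the comparison with 17 C1q-low cells, and 5 libraries remained. Clec4d then differed by log2 2.52 (adjusted p = 6.67e-08), Clec4e by 2.09 (1.42e-07) and Clec7a by 1.40 (0.000135), more than with the mixed gates. In the other direction Fcgr1 was lower in the Csf3r+ cells, at log2 -1.36 (0.00131), Fcgr2b at -1.20 (0.00152) and Clec12a at -1.25 (0.00218). Outside liver PBMC these Csf3r+ sums were small. They came from 26, 114, 33 and 78 cells of the library labelled heart TIL, liver PC, the library labelled liver TIL and kidney PBMC. Fcgr1 had 2, 10, 5 and 1 UMIs there, Fcgr2b 5, 17, 3 and 1, and Clec12a 5, 26, 1 and 1. 6 genes were called with these gates, where 27.7% of the 2323 genes tested were called, the 3 lectins higher in cells with a neutrophil profile and the 3 others higher in macrophage-gated cells. Fcgr3, Fcgr4, Fcer1g and Clec4n were not called, at adjusted p = 0.0948 to 0.838.

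Among the pathway's other genes with the unpurified gates, all 5 cytokine genes tested were higher in Csf3r+ cells (median log2 1.49, all genes 0.00), led by Il1b (log2 1.52 ± 0.18 (SE), adjusted p = 5.3e-05), Cxcl2 (log2 1.94 ± 0.25 (SE), adjusted p = 9.42e-05) and Tnf (log2 1.21 ± 0.18 (SE), adjusted p = 0.000401). Syk itself was higher (log2 0.84 ± 0.19 (SE), adjusted p = 0.00702), the 1 of 11 ITAM and Syk signalling genes called. Of 6 other C-type lectins, 3 were lower in Csf3r+ cells and 0 higher, Clec4a3, Clec4a1 and Cd302 at log2 -0.65, -0.51 and -0.50. None of 5 phosphatase and adaptor genes passed.

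NK cells were compared with T cells of the same library because Fcgr3 with Fcer1g is the known NK cell receptor for IgG, and T cells carry the background. Of 8 genes that could be tested, 1 was higher in NK cells and 0 lower, against 4.13% and 2.92% of 1815 genes tested, 7.05% in all. Fcer1g was 3370.2 CPM (2887 to 3912) in NK cells and 2249 CPM (2091 to 2415) in T cells of heart PBMC. It was 4697 CPM (4236 to 5195) against 1793 CPM (1572 to 2037) in liver PBMC, and 2599 CPM (2322 to 2901) against 446 CPM (382 to 517) in kidney PBMC. NK cells stood above T cells in all 3 PBMC beyond counting error. In tissue Fcer1g was 3809 against 2625 CPM in the library labelled heart TIL, 2519 against 1342 CPM in liver PC and 3179.7 against 2551 CPM in the library labelled liver TIL. The difference was log2 1.06 ± 0.19 (SE), adjusted p = 0.000421, in 6 of 6 libraries, and it passed in 16 of 17 alternatives, the fit without the library block being the exception (adjusted p = 0.439). Some alternatives repeated the main fit, since keeping cells of several classes or leaving out cells over 10% mitochondrial UMIs changed no NK or T cell.

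The neutrophil markers gave the background of RNA from other cells, in which free RNA and doublets were not separated. In heart PBMC there were 20.8 (19.4 to 22.4) UMIs of Fcer1g per 1000 UMIs of neutrophil markers in T cells and 21.7 (21.3 to 22) in Csf3r+ cells, values close to each other. NK cells held 40.6 (34.8 to 47.1), above both. In kidney PBMC the NK cells held 115 (103 to 128) and the T cells 25 (21.5 to 29), and its Csf3r+ cells 19 (16.5 to 21.8), an interval that just met that of the T cells. In liver PBMC the NK, T and Csf3r+ cells held 87.4 (78.8 to 96.7), 35.8 (31.4 to 40.6) and 34.6 (33.9 to 35.2). After thinning to 500 UMIs per cell, 75.7% (67.6 to 82.7) of NK cells and 22.5% (18 to 27.5) of T cells of kidney PBMC had a UMI of Fcer1g, and 87.5% and 35.4% had one before it, at median depths of 758 and 962 UMIs. Fcgr3 did not pass (adjusted p = 0.878), at 253 against 360.4 CPM in heart PBMC, 335 against 227 CPM in liver PBMC and 106 against 56 CPM in kidney PBMC. It was not told apart from the T cell background at this depth. Fcgr2b, Fcgr4 and the 4 tested lectins had adjusted p = 0.175 to 0.989, and Fcgr1 and Clec12a had too few UMIs to be tested. Tyrobp, which encodes the adaptor DAP12, was also higher in NK cells (log2 1.21 ± 0.15 (SE), adjusted p = 3.39e-06), as was the adaptor gene Dok2 (log2 1.37 ± 0.18 (SE), adjusted p = 1.02e-05). They were 1 of 4 ITAM and Syk signalling genes and 1 of 2 phosphatase and adaptor genes tested, while 0 of 3 cytokine genes passed.

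**Figure D4:**
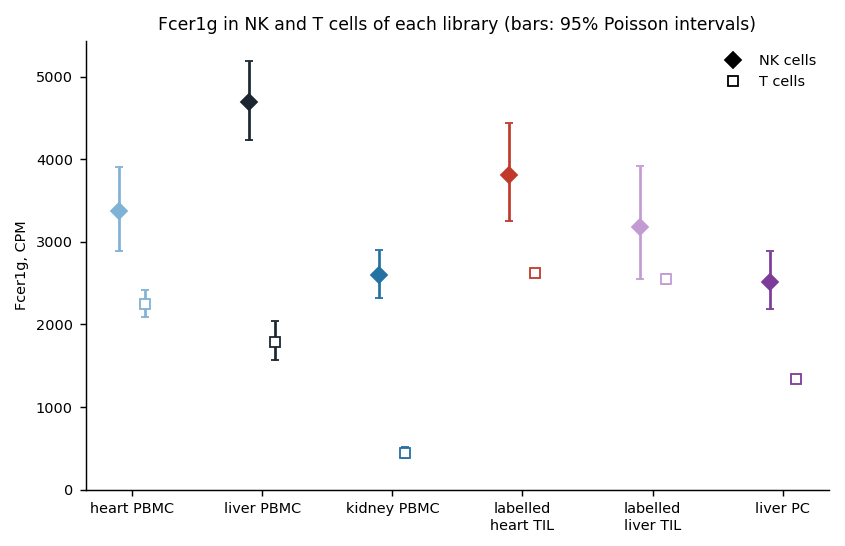
Fcer1g in CPM (y axis, from 0) in NK cells (filled diamonds) and T cells (open squares) of 6 libraries (x axis), bars being 95% Poisson intervals. NK cells lie above T cells in each library, with the widest ratio in kidney PBMC, 2599 against 446 CPM.

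B cells were compared with T cells in 4 libraries, Fcgr2b being the receptor by which IgG restrains B cells. None of the 9 genes tested passed edgeR's test, against 7.12% of 2346 genes tested (4.01% higher in B cells and 3.11% lower), 3 had an unadjusted p under 0.05, and DESeq2 called 0. Without TMM scaling, which moved the median gene by log2 -0.28, the share of calls that were higher in B cells fell from 56.3% to 27.8%, 0 of the genes were called and Fcer1g and Clec4e changed sign. Fcgr2b was 132, 170.5, 148 and 127 CPM in B cells of heart PBMC, liver PBMC, liver PC and the library labelled liver TIL, and 47.7, 83.2, 95.8 and 241 CPM in T cells (adjusted p = 0.141). It was higher in B cells in 3 of 4 libraries and lower in the library labelled liver TIL. The gate held 2 kinds of cells, since the plasma cell markers summed to 13828 and 33999 CPM in the 2 tissue libraries and 601 and 627 CPM in the PBMC, and the tissue sums rested on 43 and 20 cells. Without the library labelled liver TIL, Fcgr2b passed at log2 1.20 (adjusted p = 0.0248).

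When B cells with a UMI of Jchain were left out, a choice made after the data were seen, only heart and liver PBMC kept 20 cells, and 7 genes were called higher in B cells, where 26.7% of 2393 genes were called, Fcgr2b at log2 1.42 (adjusted p = 0.00199) and Fcer1g at 0.95 (9.09e-07) among them. In these 2 libraries the neutrophil markers summed to 154801 and 88172 CPM in B cells against 107987 and 50134 CPM in T cells, and their part in these calls was not tested. Per 1000 UMIs of neutrophil markers, Fcer1g was 22.9 (20.9 to 25) in B cells and 20.8 (19.4 to 22.4) in T cells of heart PBMC, and Fcgr2b was 0.852 (0.505 to 1.35) and 0.441 (0.252 to 0.717). The intervals overlapped for both genes. Other genes of B cell signalling passed in the 4-library test, namely Fcmr (log2 4.29 ± 0.38 (SE), adjusted p = 3.74e-06), the receptor for IgM, Fcrla (log2 4.77 ± 0.51 (SE), adjusted p = 2.66e-05), Btk (log2 3.14 ± 0.37 (SE), adjusted p = 5.94e-05) and Dok3 (log2 1.88 ± 0.30 (SE), adjusted p = 0.000946), whereas Ccl3 was lower in B cells (log2 -1.43 ± 0.30 (SE), adjusted p = 0.00825). They were 2 of 2 other Fc receptors, 1 of 8 ITAM and Syk signalling genes, 1 of 2 adaptors and 1 of 3 cytokine genes tested, and 0 of 5 other lectins passed.

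Csf3r+ cells of tissue were compared with those of the 3 PBMC, to ask how the receptors differ between blood and graft. Tissue values are in the order of the library labelled heart TIL, liver PC and the library labelled liver TIL, and blood values in the order of heart, liver and kidney PBMC. In such sums a different mix of cells and a different amount of RNA per cell cannot be told apart. 3 of the 10 genes were higher in tissue and 1 lower, where 10.2% of 3435 genes were called higher, 10% lower and 20.2% in either direction. Without TMM scaling, which moved the median gene by log2 0.36, 75.4% of calls were higher in tissue against 50.3% with it, Clec7a was lost and Fcgr2b passed. Cell type markers moved with this comparison. Neutrophil markers summed to 19229, 51941 and 17266 CPM in tissue and 212916, 140644 and 163746 CPM in blood, T cell markers to 1856, 1312 and 1704 against 477, 346 and 1067 CPM, and Kupffer cell markers to 290.1, 469.6 and 3.85 against 0 CPM in each PBMC. Their part in the result was not tested. Fcgr1 was 222, 227 and 315 CPM in tissue and 27.8, 107 and 29.6 CPM in blood (log2 1.76 ± 0.47 (SE), adjusted p = 0.0267). Clec4n was 512, 254 and 408 CPM against 111, 160.3 and 88.9 CPM (log2 1.30 ± 0.34 (SE), adjusted p = 0.0259). Clec12a was 343, 254 and 304 CPM against 115, 123 and 88.9 CPM (log2 1.07 ± 0.28 (SE), adjusted p = 0.0267). Tissue and blood did not overlap for these 3 genes, as for 32% of all genes tested, which were higher in tissue without overlap. Clec7a was 169, 343 and 304 CPM in tissue and 541, 681 and 341 CPM in blood (log2 -1.26 ± 0.38 (SE), adjusted p = 0.0401), overlapping slightly. Fcgr2b also lay higher in tissue without overlap, at 369, 299.6 and 435 against 98.5, 176 and 14.8 CPM, but missed the threshold (adjusted p = 0.0579). Clec4d missed it at adjusted p = 0.0693, and Fcgr3, Fcgr4, Fcer1g and Clec4e had adjusted p = 0.336 to 0.995.

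These 4 calls were lost with a stricter gate and without single libraries, though with single libraries left out the log2 differences kept their sign, at 1.25 to 2.72 for Fcgr1, 1.04 to 1.56 for Clec4n, 0.84 to 1.20 for Clec12a and -1.62 to -1.07 for Clec7a. With Csf3r+ cells kept only at 5% or more of S100a8 and S100a9, a gate chosen after the data were seen that left 26, 114 and 33 cells in tissue, 0 of the 9 genes that could be tested were called by edgeR (adjusted p = 0.158 or more, 1 at an unadjusted p under 0.05, Fcgr1 having too few UMIs). Calls over all genes fell as well, to 3.18% of 1196 genes tested. 0 were called with 2 UMIs of Csf3r, where 2.07% of all genes were called and 1 of the receptor genes had an unadjusted p under 0.05. That rule also removed the library labelled heart TIL, left with 16 cells, so the gate and the loss of that library cannot be told apart there. 0 were called without any 1 of heart PBMC, the library labelled heart TIL and the library labelled liver TIL. Over all genes, 346 of 3541, 182 of 4297 and 414 of 4380 tested were called in these refits, against 694 of 3435 with all libraries. Under the 5% gate Fcgr1 was 95.5, 77.3 and 219 CPM in tissue and 26.2, 85.1 and 19.5 CPM in blood, from 2, 10 and 5 UMIs in tissue. Clec4e was higher under this gate, at 2434 CPM (1813 to 3201), 2002 CPM (1766 to 2261) and 2849.5 CPM (2199 to 3632) in the library labelled heart TIL, liver PC and the library labelled liver TIL. In PBMC of heart, liver and kidney it was 1332 CPM (1290.0 to 1375), 459 CPM (428 to 492) and 547 CPM (363 to 790.0). Tissue lay above blood without overlap, as for 13.6% of genes tested with this gate, but the difference did not pass (log2 1.50, adjusted p = 0.158). Clec4d was 621, 1206 and 1315 CPM in tissue and 1146, 1035 and 586 CPM in blood, overlapping.

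**Figure D5:**
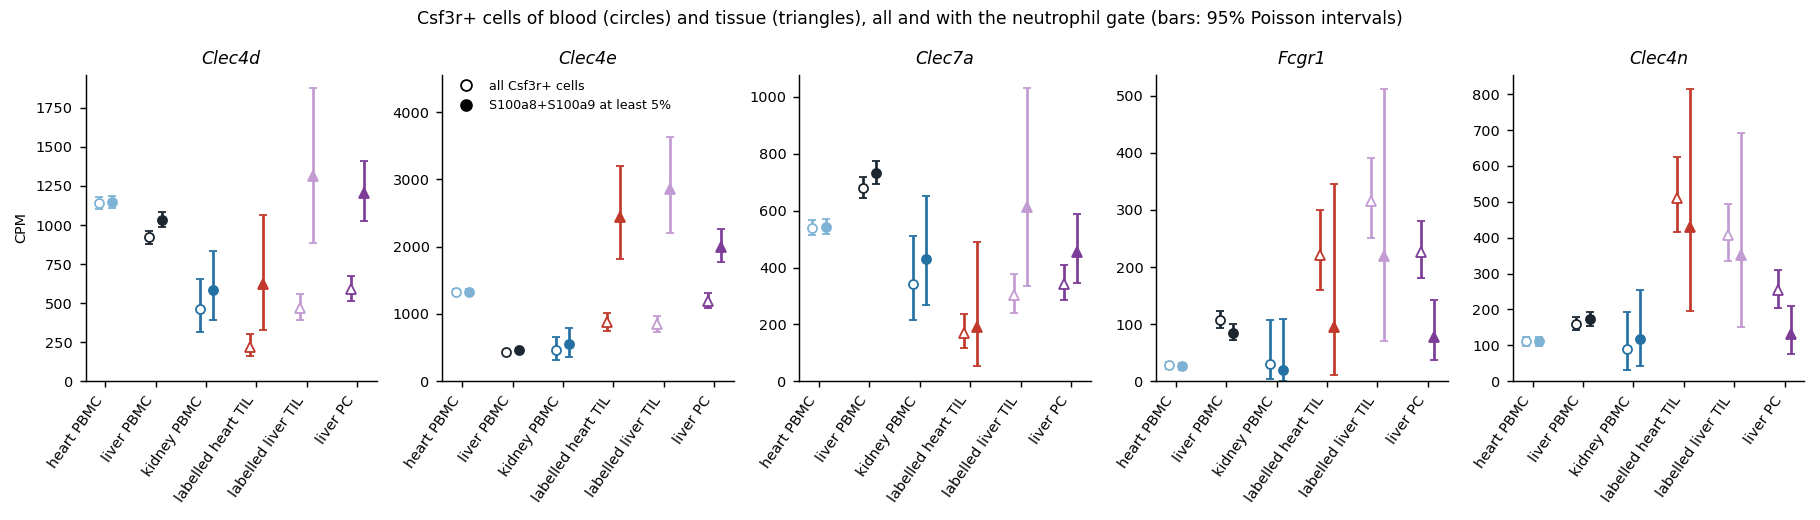
Level in CPM (y axis, from 0) of 5 genes in Csf3r+ cells of 3 PBMC (circles) and 3 tissue libraries (triangles), open for all Csf3r+ cells and filled for those with 5% or more of S100a8 and S100a9, bars being 95% Poisson intervals. Clec4e in tissue moves from 846 to 2849.5 CPM in the library labelled liver TIL, whereas Fcgr1 in liver PC moves from 227 to 77.3 CPM.

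With all Csf3r+ cells, 4 of 5 genes tested of the cytokine list were higher in tissue Csf3r+ cells and 0 lower (median log2 3.75, all genes 0.09), with Ccl3 at log2 5.39, Ptgs2, which encodes the enzyme inducible cyclooxygenase, at 5.91 and Tnf at 2.58. Of 10 ITAM and Syk signalling genes, 3 were lower in tissue and 0 higher, Tyrobp (log2 -1.51 ± 0.33 (SE), adjusted p = 0.0121), Plcg2 (log2 -1.63 ± 0.39 (SE), adjusted p = 0.0169) and Fgr (log2 -1.35 ± 0.33 (SE), adjusted p = 0.0198). Dok2 was higher in tissue (log2 2.31 ± 0.38 (SE), adjusted p = 0.00395) and Dok3 lower (log2 -1.06 ± 0.30 (SE), adjusted p = 0.0345), 2 of 5 phosphatase and adaptor genes. Of 6 other lectins, Clec2d was lower (log2 -1.77 ± 0.37 (SE), adjusted p = 0.0108) and 0 were higher.

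In Csf1r+ C1q-low cells, 5 tissue libraries were set against the 3 PBMC. 1 of the 10 genes was lower in tissue and 0 higher, where 4.87% and 3.54% of 4233 genes were called, 8.41% in all. Without TMM scaling, which moved the median gene by log2 0.30, 63.6% of calls were higher in tissue against 42.1% with it, Clec7a missed the threshold and Clec4n passed as higher. Clec7a was 188, 235, 172, 45.4 and 28.1 CPM in the library labelled heart TIL, liver PC, the library labelled liver TIL, kidney PC and kidney TIL, and 437, 406 and 355 CPM in heart, liver and kidney PBMC. Tissue lay below blood without overlap, as for 5.93% of genes tested (log2 -1.59 ± 0.46 (SE), adjusted p = 0.0463), and the call was lost without any 1 of heart PBMC, liver PBMC, kidney PC and the libraries labelled heart TIL and liver TIL (adjusted p = 0.0521 to 0.251), with log2 -1.87 to -1.25 over the single libraries left out. Clec4n was 435, 319, 303, 45.4 and 113 CPM in the same tissue libraries and 79.1, 53.8 and 0 CPM in blood, overlapping through kidney PC, and missed the threshold at adjusted p = 0.0712. Neutrophil markers summed to 8304, 13087, 6745, 182 and 394 CPM in these tissue libraries and 179761, 62085 and 41019.8 CPM in blood, and T cell markers to 1882, 1021, 1589, 3452 and 3181 against 501, 198 and 827 CPM. Their part in the result was not tested. The other 8 genes had adjusted p = 0.174 to 0.883. With the labelled organ as a block, which pairs tissue with blood by label, 2 of the 10 genes were called, where 488 of 4233 genes were called. Organ genes ran against the labels of heart TIL and liver TIL, so this pairing may be wrong for these libraries. With the cells rich in S100a8 and S100a9 left out, which also removed heart PBMC with 17 cells left, 0 of the 10 genes were called by edgeR and 1 had an unadjusted p under 0.05, while calls over all genes fell to 0.0662% of 4529. Of the other genes of the pathway, Tyrobp and Fgr were lower in tissue at log2 -1.35 and -1.62 (2 of 11 signalling genes), Dok2 was higher at 2.26 (1 of 5) and Ccl3 was higher at 4.50 (1 of 4 cytokine genes). None of 6 other lectins and 1 other Fc receptor tested passed.

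Among the C1q-high cells of liver PC, 27 had a UMI of Clec4f, a lectin particular to Kupffer cells, the resident macrophages of the liver, and 672 had none. Fcgr2b was 74.4 CPM (29.9 to 153) in the cells with Clec4f and 529 CPM (494 to 566) in those without. Clec4e was 149 CPM (81.3 to 249.6) and 527 CPM (491 to 564), Clec4d 42.5 CPM (11.6 to 109) and 198 CPM (176 to 221), and Clec7a 106 CPM (51 to 195) and 307 CPM (280.3 to 336). Fcer1g was 3762 CPM (3380.3 to 4175) and 4937 CPM (4828 to 5049). These 5 genes were lower in the Clec4f+ cells with intervals that did not meet, as were 11.8% of 1301 genes with at least 200 UMIs in these cells. Fcgr1 was 404 CPM (286 to 554) and 352 CPM (323 to 383), and the intervals of Fcgr3, Fcgr4, Clec4n and Clec12a overlapped as well. This is 1 library and has no test. The cells with Clec4f were deeper, with a median of 3165 UMIs against 1993.5.

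Across 35 sums of a class in a library, the genes whose log2(CPM + 1) ran most like each receptor were listed among 8122 genes, as a description of sums that share libraries and background RNA. For Clec12a they were Cfp (Pearson's r 0.945), Grn (0.910) and Tgfbi (0.886), for Fcgr3 Pla2g7 (0.927), Fgl2 (0.886) and Csf2ra (0.883), and for Fcgr4 Lst1 (0.910), Klra2 (0.902) and Mpeg1 (0.901). Fcgr1 ran with Clec4a3 (0.876), Pld4 (0.840) and App (0.832), Fcgr2b with Ctsc (0.883), Ctss (0.882) and Creg1 (0.874), and Fcer1g with Itm2b (0.868), Fgl2 (0.853) and Rnf130 (0.845). Among the lectins, Clec4e ran with Socs3 (0.906), Marcksl1 (0.900) and Il1rn (0.899), Clec4d with Stfa2l1 (0.893), Anxa1 (0.892) and Il1b (0.890), Clec7a with Psmb9 (0.869), Sat1 (0.836) and Slpi (0.833), and Clec4n with AA467197 (0.820), Adam9 (0.783) and Bax (0.764). Within the 10 genes, Fcgr3 ran most like Fcgr4 (0.919) and Fcer1g (0.882), and Clec4d like Clec4e (0.838) and Clec7a (0.837). Clec7a lies in another stretch of chromosome 6, and Clec4n, in the same stretch as Clec4d, ran less like it (0.271).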

How the data were processed

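The authors sequenced Microwell-seq libraries and deposited 1 table of UMI counts per library, with 10000 barcodes each. Per the labels and the study's methods, reads were demultiplexed with bcl2fastq, aligned with STAR to GRCm38 and counted with the Drop-seq core tools. Reads that aligned to several places were discarded, and UMIs of a gene that differed by 1 base were merged. The samples came from 2 recipients per organ. The GENCODE release and whether a library pools the 2 animals are not given in the sources used here.

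Barcodes under 500 UMIs were left out, and cells that met several class rules entered no class. No doublet caller was run, and no cell cluster was made. Counts were summed per library and class with at least 20 cells and tested with edgeR 4.0.16 (R 4.3.3), as a quasi-likelihood test with TMM scaling, a filter on low counts and Benjamini-Hochberg adjustment over all genes tested, at an adjusted p under 0.05. Classes were compared with the library as a block, and tissue was compared with blood without one. Alternatives were DESeq2 1.42.0, other scalings, filters and class rules, thinning to 500 UMIs, and leaving out single libraries. The code was tested on simulated counts with a fixed spread. Across the comparisons it called 15% to 42.9% of genes changed by log2 1, and 85.6% to 100% of those changed by log2 2. A gene that did not pass is thus not shown to be unchanged. Each condition being 1 library, libraries of different organs and compartments served as the replicates. By their labels liver PC and TIL share an organ, as do kidney PC and TIL, while organ genes ran against the labels of heart TIL and liver TIL, so which libraries share an organ is not settled. The libraries may therefore not all be independent, and p-values measure the spread between these libraries only. Intervals cover counting error only, since the cells of a library are not replicates.

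The genes and pathway lists were chosen with earlier results of these data known. Pathway genes are named by the smallest adjusted p, at most 3 per list and comparison, and like genes as the 3 with the highest Pearson's r of log2(CPM + 1). Purified gates were added after the data were seen. PC of heart grafts are not analysed here.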

Additional observations from a re-analysis of the deposited data

Results flagged for a closer look

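Kidney PBMC stood apart from the other libraries in 5 ratios between classes. The ratio of Csf3r+ to C1q-low levels in kidney PBMC was 1.71 for Fcgr3, 5.83 for Clec4d and 3.89 for Clec4e, and the ratio of NK to T cell levels was 9.60 for Fcgr2b and 5.83 for Fcer1g, each far above the nearest of the other 5 libraries by Dixon's test. The class sums of kidney PBMC rest on 29 C1q-low and 100 Csf3r+ cells, and Fcgr2b had 3 UMIs in its NK cells and 1 in its T cells. Liver PBMC was far from the others for Clec4n, with a ratio of 3.28 for NK over T cells among 6 libraries and of 2.87 for B over T cells among 4. These 7 flags came from 50 groups checked, which held levels within a class as well as ratios, and all 7 were ratios. Chance gives about 1 flag in 20 groups.

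B cells went against T cells in opposite directions in blood and tissue for 4 genes. The median ratio of B to T cell levels was 1.79 in the 2 PBMC and 0.631 in the 2 tissue libraries for Fcgr3, 1.58 and 0.539 for Fcgr4, 1.74 and 0.531 for Fcer1g, and 1.35 and 0.347 for Clec4e. The difference between blood and tissue was not tested. The B cell gate of the tissue libraries held 43 and 20 cells with plasma cell markers at 13828 and 33999 CPM, and neutrophil markers were higher in B than in T cells of both PBMC. Their part in the result was not tested.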

How the results depend on the processing

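In C1q-high against C1q-low cells, 7 genes were called. DESeq2, cells with at least 1000 UMIs and a C1q sum of at least 3 each called 4 (Fcgr1, Fcgr3, Fcgr4 and Clec4e). Over all genes, 176 of 5443, 313 of 4171 and 216 of 3043 were called there. With 2 UMIs of Csf1r, 1 was called, Clec4e, where 175 of 2263 genes were. Without the library block 0 were called, as were 0 of 5443 genes. Leaving out a library called 5 to 6, where 325 of 4793 to 465 of 6076 genes were called. In Csf3r+ against C1q-low cells, 4 were called, and 2 without TMM scaling, 0 without the library block and 3 to 4 without a library. Over all genes, 285 of 3989 were called without TMM scaling, 2 of 3989 without the block and 177 of 3534 to 407 of 3919 without a library. With at least 1000 UMIs, Fcgr1, not called, turned to log2 0.0623. In NK against T cells, 1 was called, 2 without the filter on low counts and 0 without the library block. Over all genes, 366 of 20462 and 37 of 1815 were called in these 2 refits. In B against T cells, 0 were called, 2 with shared barcodes left out (the library labelled liver TIL then left too, with 16 B cells), 1 without both libraries labelled heart TIL and liver TIL, 7 without Jchain cells and 0 to 1 without a library. Over all genes of this comparison, 247 of 1962, 273 of 2395, 638 of 2393 and 92 of 2389 to 273 of 2395 were called, in that order. There the uncalled Clec4e turned to log2 -0.0371 with DESeq2, -0.13 without TMM scaling and -0.29 without the filter, Fcer1g to -0.0171 without TMM scaling and -0.19 without the filter, and Fcgr4 to -0.0848 without the filter, and over single libraries left out they ran from -0.34 to 0.34, -0.20 to 0.55 and -0.0806 to 0.58. In Csf3r+ cells of tissue against blood, 4 were called, 1 with at least 1000 UMIs (kidney PBMC then left too, with 7 Csf3r+ cells), 2 thinned, 1 with cells of several classes kept, 0 without both libraries labelled TIL of heart and liver, 0 with 2 UMIs of Csf3r, 0 with the purified gate and 0 to 3 without a library. Over all genes, 367 of 4010, 361 of 1934, 844 of 6080, 156 of 8236, 23 of 1111, 38 of 1196 and 182 of 4297 to 925 of 4299 were called, in that order. In C1q-low cells of tissue against blood, 1 was called, 3 without the filter, 2 thinned, 0 without shared barcodes, 0 without the same 2 libraries, 2 with the labelled organ as a block, 0 with 2 UMIs of Csf1r, 0 purified and 0 to 1 without a library. Over all genes, 635 of 15392, 339 of 2453, 327 of 3768, 28 of 2116, 488 of 4233, 21 of 1116, 3 of 4529 and 107 of 4573 to 414 of 5402 were called, in that order. Clec4d, uncalled in both comparisons of tissue with blood, turned to log2 0.10 and 0.45 with the purified gates. The cause of these changes was not tested. Over 608 refits of genes called in any setting, 452 kept their direction and side of the threshold, 103 lost a call, 39 gained one and 14 changed sign. Genes not called in the main fit are among them, and staying uncalled counts as keeping the side. Some of these refits repeated the main fit or each other, such as those leaving out cells over 10% mitochondrial UMIs. Another 65 of 386 refits of genes never called changed sign. Over all genes, calls ranged from 0 to 1083 (479 as reported), 2 to 643 (374), 37 to 366 (128), 60 to 638 (167), 23 to 1157 (694) and 3 to 1070 (356) in the 6 comparisons in this order. C1q-high cells could not be tested without both libraries labelled TIL, as 1 library remained. Replicate numbers paired nothing, each group having 1 library numbered 1, so classes were paired by library. Tissue was paired with blood only in the fit with organ as a block, by the labelled organ, against which organ genes ran in 2 libraries. With 2 UMIs of Csf3r the library labelled heart TIL also left, with 16 cells, and with at least 1000 UMIs or 2 UMIs of Csf1r the C1q-low cells of all 3 kidney libraries did. The Csf1r+ classes of the kidney libraries held 50 cells or fewer, which limits what can be told there.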

Other observations

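Kidney grafts held 17 C1q-high cells in PC and 17 in TIL, too few for a test. Their summed Fcer1g was 3184 CPM (2205 to 4449) and 3871 CPM (2778 to 5252), and Fcgr3 was 749 CPM (323 to 1476) and 755 CPM (326 to 1488). Clec4d had 0 UMIs in both, Clec4e had 0 in PC, and Clec12a had 0 in TIL.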
